A study of Mus musculus with 2 samples.

Results

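Tight pairs of REV-ERBα binding sites are described here: chains of exactly 2 autosomal peaks whose midpoints lie at most 3000 bp apart and which have no further peak within 10000 bp of either midpoint. Pairs were selected on the listed positions of the peaks. A peak was listed only if its tags passed the caller's filters, so tags and balance are not free of that selection. There were 421 tight pairs. They hold 842 of the 8772 autosomal peaks (9.60%), in a list of 8884 peaks in all. The peaks come from chromatin immunoprecipitation followed by sequencing (ChIP-seq) of T helper 17 (Th17) cells of the mouse, which are CD4 T cells that make interleukin 17. The cells were wild type and grown in primary culture. There was 1 ChIP sample, taken with an antibody against REV-ERBα, and 1 input sample of unprecipitated DNA from the same kind of cells. The sources used here give neither the number nor the age of the animals.

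REV-ERBα belongs to the nuclear receptors and to the circadian clock. It binds haem and represses transcription, because it recruits the NCoR corepressor with its histone deacetylase and lacks the helix that other nuclear receptors use for activation. It binds as a monomer to the element that it shares with the ROR receptors, among them RORγt, the factor that defines Th17 cells. It can also bind as a dimer to a closely spaced repeat of that element. Neighbouring peaks can mark separate elements of 1 regulatory region or different parts of it, which peak positions alone do not tell apart.

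The ChIP library held 6390234 tags (aligned reads), and a tag count below is the number of ChIP tags in a peak 306 bp wide. With 1 ChIP sample there is no spread between replicates, no test between conditions could be made, and every interval below is a 95% interval that covers counting error only. Tags without molecular identifiers are not independent molecules, and the 2 peaks of a pair share their surroundings, so these intervals can be too narrow. Positions are given in the mm9 build. No gene is paired with a peak in the list, and mm9 sequence was not used here, so pairs are named by position and their sequences are not shown.

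The 3 other sets of autosomal peaks serve as background. Wider pairs are chains of exactly 2 peaks with midpoints over 3000 and up to 10000 bp apart (630 pairs, 1260 peaks). Solitary peaks have no other peak within 10000 bp (5810 peaks). The remaining 860 peaks lie in chains of 3 or more. On the autosomes 591 neighbouring peaks were at most 3000 bp apart, and 421 of these gaps (71.2%) made up the tight pairs, while the other 170 lay inside longer chains. Tight pairs were 40.1% of the 1051 chains of exactly 2 peaks.

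Among the tight pairs, frequency was highest in the bin up to 1000 bp and lowest in the bin from 2000 to 3000 bp. The distance between midpoints had a median of 1568 bp, with quartiles of 1086 and 2227 bp, and ran from 626 to 2991 bp. The caller allowed no peaks closer than 612 bp, so the shortest pairs sit just above its limit and closer sites would be listed as 1 peak. From that limit to 1000 bp there were 90 pairs, or 23.2 per 100 bp of distance (interval 18.7 to 28.5). From 1000 to 2000 bp there were 190, or 19.0 per 100 bp of distance (16.4 to 21.9), and from 2000 to 3000 bp 141, or 14.1 per 100 bp (11.9 to 16.6). Beyond the limit of the rule, wider pairs of 3000 to 5000 bp numbered 7.75 per 100 bp (6.58 to 9.07) and those of 5000 to 7000 bp 10.3 per 100 bp (8.94 to 11.8). Those of 7000 to 10000 bp numbered 8.97 per 100 bp (7.93 to 10.1). Within the rule's range frequency thus fell from the shortest to the longest bin. Intervals of neighbouring bins overlap there, and single steps of 100 bp did not fall evenly. Among the bins of wider pairs there was no steady fall. The distances are what the rule selected, and these values are a description.

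**Figure D1:**
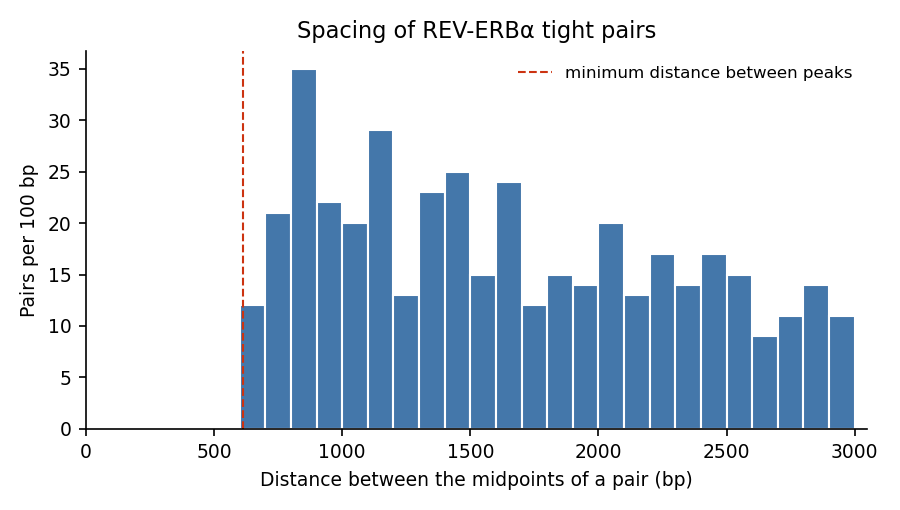
Number of tight pairs per 100 bp of distance between midpoints (x axis, bp); the dashed line marks the caller's minimum distance of 612 bp. The fullest bar, 35 pairs, lies at 800 to 900 bp, and the bars beyond 2500 bp hold 9 to 15 pairs.

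The shortest pair lay on chromosome 3, at chr3:95790259-95790565 and chr3:95790885-95791191, with midpoints 626 bp apart and 11 and 13 tags. The next lay 630 bp apart on chromosome 5 (chr5:130732024-130732330 and chr5:130732654-130732960), with 12 and 10 tags. The pair at 647 bp on chromosome 3 (starts 142282640 and 142283287) had 18 and 12 tags. The 5 shortest pairs, which also include one on chromosome 6 at 668 bp and one on chromosome 2 at 669 bp, had peaks of 10 to 18 tags.

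At the other end of the rule, the pairs just inside and just outside 3000 bp looked alike. Those just inside were at 2991 and 2975 bp on chromosome 10 (12 and 14 tags; 11 and 10 tags), 2963 bp on chromosome 2 (15 and 26 tags), 2946 bp on chromosome 18 (20 and 14 tags) and 2938 bp on chromosome 9 (16 and 16 tags). Those just outside were at 3003 bp on chromosome 10 (14 and 13 tags), 3006 bp on chromosome 6 (35 and 27 tags), 3024 bp on chromosome 11 (12 and 14 tags), 3028 bp on chromosome 6 (11 and 17 tags) and 3088 bp on chromosome 15 (16 and 14 tags). Apart from the pair at 3006 bp, whose peaks had 35 and 27 tags, the peaks on both sides of the limit held 10 to 26 tags, so the limit marks no visible step in strength.

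Peaks in tight pairs were somewhat stronger than solitary peaks. Their median was 17 tags (interval 16 to 17), with quartiles of 13 and 22, against 14 in solitary peaks, 16 in wider pairs and 15 over all autosomal peaks. At least 20 tags were found in 299 of 842 tight-pair peaks (35.5%, 32.3 to 38.8), in 34.4% of wider-pair peaks (31.8 to 37.1) and in 22.3% of solitary peaks (21.3 to 23.4). Peaks in chains of 3 or more had a median of 16 tags, and 35.5% of them reached 20. The strongest tight-pair peak had 53 tags. At least 30 tags were found in 7.72% of tight-pair peaks (6.01 to 9.73), in 5.32% of solitary peaks (4.76 to 5.93) and in 10.6% of wider-pair peaks (8.91 to 12.4). These are shares of peaks in 1 library, and the differences were not tested. The caller required each peak to be 4-fold over the 10000 bp around it, where a partner's tags count. To reach this, the weaker peak of a tight pair needed a median of 12 tags, and 9 without the partner's tags. The lowest count was 9 tags in tight pairs and 7 in solitary peaks. The part of this filter in the difference was not tested. The median tight-pair peak was at 26.6 when scaled by the authors to 10000000 tags.

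Taken as units, tight pairs held a median of 35 tags (interval 33 to 36), with quartiles of 28 and 43 and a range of 19 to 99. Wider pairs were alike, with a median of 34 tags (33 to 35), quartiles of 28 and 44 and a maximum of 96. A sum over 2 peaks is larger than a single peak by construction, so the values of solitary peaks give scale only. Of the 5810 solitary peaks 139 (2.39%) reached 35 tags. The summed tags of 9 pairs exceeded those of the strongest solitary peak, 68, leaving aside a region on chromosome 2 whose input is also very high. Both peaks reached 20 tags in 81 pairs (19.2%, interval 15.6 to 23.3), 1 of them in 137 pairs (32.5%) and neither in 203 (48.2%). About as many tight pairs therefore consisted of weak peaks only as held at least 1 peak of 20 tags.

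The strongest pair in summed tags was on chromosome 1, at chr1:140185387-140185693 and chr1:140186695-140187001, 1308 bp apart. Its peaks had 50 and 49 tags (Poisson intervals 37.1 to 65.9 and 36.3 to 64.8). Both had 5.7 scaled input tags and were 8.82-fold and 8.64-fold over input. Strength, input and enrichment were nearly equal in this pair, and the share of tags in the first peak was 50.5% (40.3 to 60.7).

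The next pair, also on chromosome 1, was less even. Its peaks at chr1:132888751-132889057 and chr1:132890355-132890661 lay 1604 bp apart and had 36 and 53 tags, the latter the highest count in any tight pair. The share of the first was 40.4% (30.2 to 51.4), which still includes an equal split. The region around it was rich in ChIP tags, with 267 tags in the 10000 bp around each peak outside the peak itself. These include the partner's tags, and 214 and 231 remained without them. With the partner included, the first peak was only 4.27-fold over its local region.

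A pair on chromosome 6, at chr6:48696008-48696314 and chr6:48697737-48698043, had 29 and 49 tags and very different input. The weaker peak stood 4.38-fold over 6.6 scaled input tags, and the stronger 25.9-fold over 1.9. Here the share of the first peak, 37.2% (26.5 to 48.9), left out an equal split. Pairs of 34 and 40 tags on chromosome 8 (starts 35818551 and 35820144) and of 37 and 36 tags on chromosome 17 (starts 29531037 and 29532400) followed. Then came pairs of 33 and 38 tags on chromosome 2 (starts 69927731 and 69929337) and on chromosome 4 (starts 108775226 and 108777841), and one of 32 and 39 tags on chromosome 7 (starts 82717388 and 82720120). Shares of 45.1% to 50.7% in the first peak were found in these 5 pairs, and each interval included an equal split.

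The last of the 10 pairs named lay on chromosomes 1 and 3. The pair on chromosome 1 at starts 130508324 and 130509627 had 50 and 20 tags, and the one on chromosome 3 at starts 101037392 and 101039215 had 26 and 42. The first left out an equal split and the second did not (38.2% in the first peak, 26.7 to 50.8). Their summed tags were 70 and 68. The sum of 68 was shared by 3 pairs, and the others had 21 and 47 tags on chromosome 10 (starts 117607964 and 117609504, called unequal below) and 26 and 42 on chromosome 12 (starts 52966053 and 52967427).

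Balance within a pair was described by the ratio of the weaker to the stronger tag count. Its median was 0.80 in tight pairs (interval 0.78 to 0.82), with quartiles of 0.67 and 0.90, and 0.76 in wider pairs (0.72 to 0.77). Tags were equal in 38 tight pairs (9.03%), and the ratio was at least 0.9 in 108 (25.7%). It was under 0.5 in 17 tight pairs (4.04%, interval 2.37 to 6.39) and in 74 of the 630 wider pairs (11.7%, 9.34 to 14.5). The stronger peak was the one at the lower coordinate in 204 pairs and at the higher coordinate in 179, so neither side was favoured beyond counting error (48.5%, 43.6 to 53.3, and 42.5%, 37.7 to 47.4, of all pairs).

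**Figure D2:**
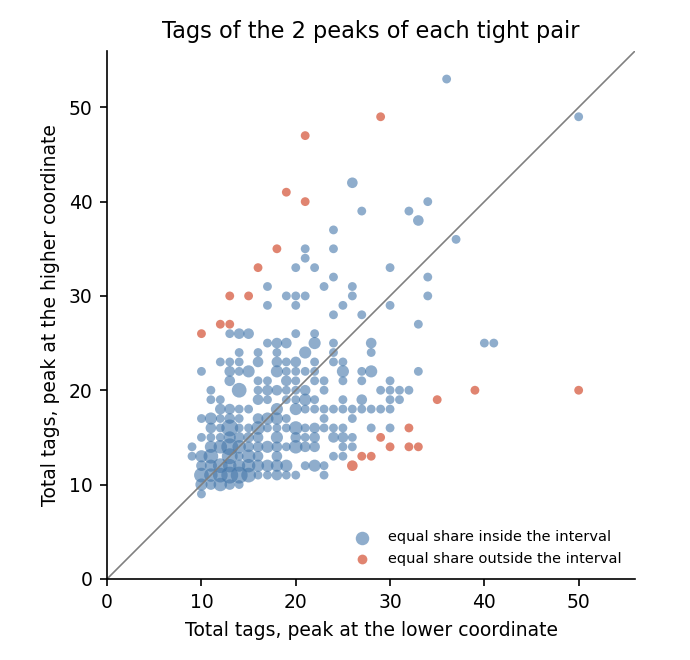
Total tags of the peak at the lower coordinate (x axis) against those of the peak at the higher coordinate (y axis) for the 421 tight pairs; larger points stand for several pairs, the line marks equal tags, and red points are the 23 pairs whose 95% interval leaves out an equal split. Most pairs lie near the line at 10 to 25 tags, and the red points lie on both sides of it.

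A pair was called unequal where the exact binomial interval of the first peak's share of the tags left out 50%. This held for 23 of 421 tight pairs (5.46%, interval 3.49 to 8.08), with the lower-coordinate peak the stronger in 12 and the other in 11. Among all 8753 neighbouring autosomal peaks the same call was made for 13.9%, among the 7104 neighbours over 10000 bp apart for 14.3%, and among wider pairs for 15.1% (12.4 to 18.1). Tight pairs thus held unequal tags in a smaller share than neighbouring peaks in general, most of which lie further apart. The caller's local filter can keep a weak peak close to a much stronger one off the list. Its part in this contrast was not tested. Low shares were also found among all close neighbours, longer chains and tight pairs included. They were 4.13% up to 1000 bp, 7.01% from 1000 to 2000 bp and 3.52% from 2000 to 3000 bp. From 3000 to 5000 bp the share was 6.83%, and from 5000 to 10000 bp 18.3%. The call needs tags: with 9 tags in the weaker peak, the lowest count in any tight pair, a pair must sum to at least 30. Below that sum no pair was called, tight or wider (0 of 143, which allows up to 2.55%, and 0 of 204, which allows up to 1.79%). At summed tags of 30 to 39, 3.03% of 132 tight pairs (0.832 to 7.58) and 9.23% of 195 wider pairs (5.56 to 14.2) were unequal, and at 40 or more 19 of 146 tight pairs (8.02% to 19.6%) and 77 of 231 wider pairs (27.3% to 39.8%) were so.

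The 23 unequal pairs lay on 13 chromosomes, held 36 to 78 tags in sum and had ratios of 0.38 to 0.59. The least balanced was on chromosome 6 at chr6:49078177-49078483 and chr6:49080383-49080689, with 10 and 26 tags. The pair of 50 and 20 tags on chromosome 1 (chr1:130508324-130508630 and chr1:130509627-130509933) came next, with 71.4% of its tags in the first peak (59.4 to 81.6). Pairs of 33 and 14 tags on chromosome 8 (starts 48026695 and 48028691), 13 and 30 tags on chromosome 17 (starts 87248583 and 87250054) and 32 and 14 tags on chromosome 12 (starts 77476592 and 77478726) followed. In these 5 pairs the stronger peak had 2.29 to 2.60 times the tags of the weaker. Among 421 pairs, some 95% intervals leave out an equal split by counting error alone. The share of pairs called was 5.46%, and 0.95% with a 99% interval. Neither share can be judged against the nominal error rate of such intervals. Exact intervals err at most at that rate, and no call was possible in the 143 tight pairs that sum to under 30 tags. Among tight pairs with summed tags of 40 or more the share was higher (interval 8.02% to 19.6%). A single call therefore does not show unequal binding, and which of the 23 pairs differ beyond counting error was not tested.

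Among strong pairs with a ratio of at least 0.9, the leading ones were the pairs of 50 and 49 tags on chromosome 1 and of 37 and 36 on chromosome 17 named above. On chromosome 18 the peaks at starts 84971739 and 84972649, 910 bp apart, had 34 and 32 tags. On chromosome 4 one pair had 30 and 33 tags (starts 132738504 and 132741154) and another 30 and 29 (starts 43984883 and 43986231). With counts of this size the interval of the share is still wide, 37.5% to 64.1% in the last pair, so an even count does not show equal binding.

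Across the 421 tight pairs the tags of the 2 peaks were correlated, with Spearman's rho of 0.50 and Pearson's r of 0.49. In wider pairs rho was 0.30, and between neighbouring peaks 10000 to 30000 bp apart it was 0.07 (1737 neighbours). These are descriptions across pairs of 1 library, whose peaks share their local region and a common threshold. Within the tight pairs rho between distance and ratio was 0.04, and the median ratio was 0.79 up to 1000 bp, 0.81 from 1000 to 2000 bp and 0.81 from 2000 to 3000 bp. The share of unequal pairs over these bins was 4.44% (1.22 to 11.0), 8.42% (4.89 to 13.3) and 2.13% (0.441 to 6.09), and the intervals overlap.

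Balance differed between wider pairs with the partner inside the caller's local region and those with the partner outside. The authors' filter required each peak to be 4-fold over the 10000 bp around it, and if this region is centred on the peak, a partner up to 4847 bp away lies inside it and one from 5153 bp outside. Wider pairs with the partner inside resembled tight pairs: the median ratio was 0.80 (0.77 to 0.83), rho of the tags was 0.50 and 8.72% of 149 were unequal (4.73 to 14.5). With the partner outside, the median ratio was 0.72 (0.69 to 0.76), rho was 0.24 and 16.9% of 455 were unequal (13.6 to 20.7). From 4000 to 4847 bp 9.46% were unequal, and from 5153 to 6000 bp 16.9%, but the intervals of these short stretches overlap (3.89 to 18.5 and 9.31 to 27.1). Values pooled over all distances on each side cannot tell a step at the edge from a gradual change with distance. The part of the local filter in the balance of tight pairs was not tested.

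**Figure D3:**
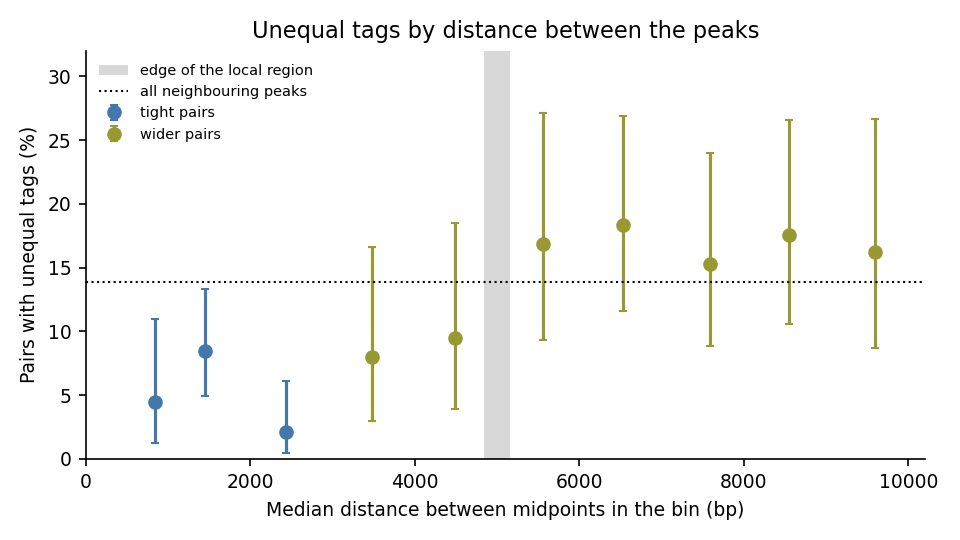
Share of pairs with unequal tags (y axis, %) in bins of distance between midpoints (x axis, bp, at the median of each bin) for tight and wider pairs; bars are exact 95% binomial intervals, the grey band is the edge of the local region and the dotted line the 13.9% of all neighbouring peaks. The bins inside the edge lie between 2.13% and 9.46% and those outside between 15.3% and 18.3%.

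The listed fold over the local region gives the number of ChIP tags in that region outside the peak. For all 8884 peaks a whole number of tags gave back the listed fold to within 0.0055. For tight-pair peaks it includes the partner's tags. The median was 54 tags around solitary peaks (54 to 55) and 73 around wider-pair peaks (71 to 76). In chains of 3 or more it was 83 (80 to 86). Around tight-pair peaks it was 85 (interval 83 to 88), so such crowded surroundings were not particular to tight pairs. The partner made up a median of 19.6% of these tags, with quartiles of 16.4% and 24.1%. Without the partner a median of 68 tags remained (66 to 70), still above the 54 of solitary peaks and equal to the 68 around wider-pair peaks whose partner lies outside. An even spread of the library over the caller's genome size would give 31.0 tags. The surroundings of tight pairs thus held more ChIP tags than those of solitary peaks also where the partner was not counted, in peaks not matched for strength. Among peaks of 7 to 12 tags, those in tight pairs had a median of 67.5 local tags with the partner included and solitary peaks 48, and among peaks of 23 tags or more 110.5 and 76. Within such classes no comparison was made with the partner left out.

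**Figure D4:**
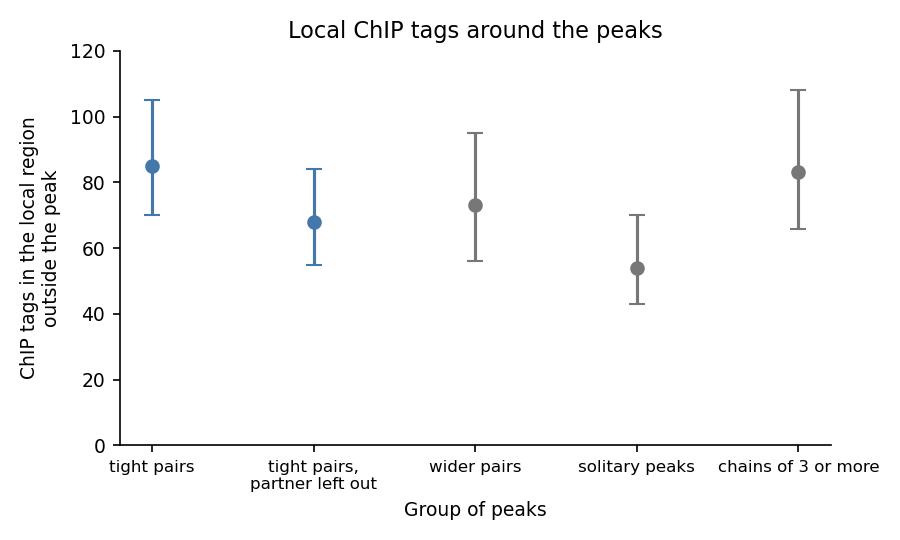
ChIP tags in the 10000 bp around a peak, outside the peak itself (y axis), for each group of peaks (x axis); points are medians and bars run from the lower to the upper quartile. Tight pairs have a median of 85, or 68 with the partner's tags left out, solitary peaks 54 and chains of 3 or more 83.

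Enrichment over the local region was accordingly low. Its median was 6.09-fold in tight-pair peaks (5.88 to 6.34), and 7.69-fold with the partner left out (7.49 to 7.92). It was 7.20-fold in wider pairs and 8.50-fold in solitary peaks. In chains of 3 or more it was 6.09-fold as well (5.94 to 6.34). A value under 5-fold, close to the filter of 4-fold, was listed for 210 of 842 tight-pair peaks (24.9%, 22.1 to 28.0) and for 5.54% of solitary peaks (4.97 to 6.16). In chains of 3 or more such a value was listed for 24.0% of peaks (21.1 to 27.0). With the partner left out it would hold for 28 tight-pair peaks (3.33%). Leaving the partner out can only raise the fold of a peak that had passed the filter with it. Neither this share nor the 7.69-fold can therefore be set against solitary peaks. The weaker peak of a tight pair needed a median of 12 tags (quartiles 10 and 14) to reach 4-fold, and 9 without the partner's tags. In 187 pairs (44.4%) it lay at most 2 tags above that need. At the tags needed, or at 7 tags, the lowest count in the list, where that is higher, an unequal call was possible for 88 of the 421 pairs (interval 17.1% to 25.1%), and without the partner's tags for 164 (interval 34.3% to 43.8%). These counts leave aside the score threshold, the Poisson p-values and the filter over input, so they can be too high. Whether the local filter shaped the balance was not tested. Weaker partners that failed the filter are not listed, so a strong peak beside a much weaker one can appear in the list as solitary.

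Input under tight-pair peaks was low and close to that of other peaks of the same strength. The median was 1.9 scaled input tags, as in solitary and wider-pair peaks, and the range 0.5 to 7.6. The values lie on steps of 0.945, each read as 1 input tag, and the lowest value of 0.5 as none. In these units tight-pair peaks had a mean of 1.94 input tags (1.85 to 2.04), wider-pair peaks 1.93 (1.86 to 2.01) and solitary peaks 1.71 (1.67 to 1.74, without the region of very high input on chromosome 2). No input tag was found under 124 tight-pair peaks (14.7%, interval 12.4 to 17.3), against 17.9% of solitary peaks (16.9 to 18.9) and 14.8% in wider pairs. The filter of 4-fold over input ties input to strength, because a weak peak passes only where input is low. Within classes of equal tags the difference was within counting error: at 7 to 12 tags the means were 1.25 in tight pairs (1.08 to 1.43) and 1.17 in solitary peaks (1.13 to 1.22), at 13 to 16 tags 1.61 and 1.62, at 17 to 22 tags 2.22 (2.04 to 2.41) and 2.06 (1.97 to 2.14), and at 23 tags or more 2.69 and 2.68.

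**Figure D5:**
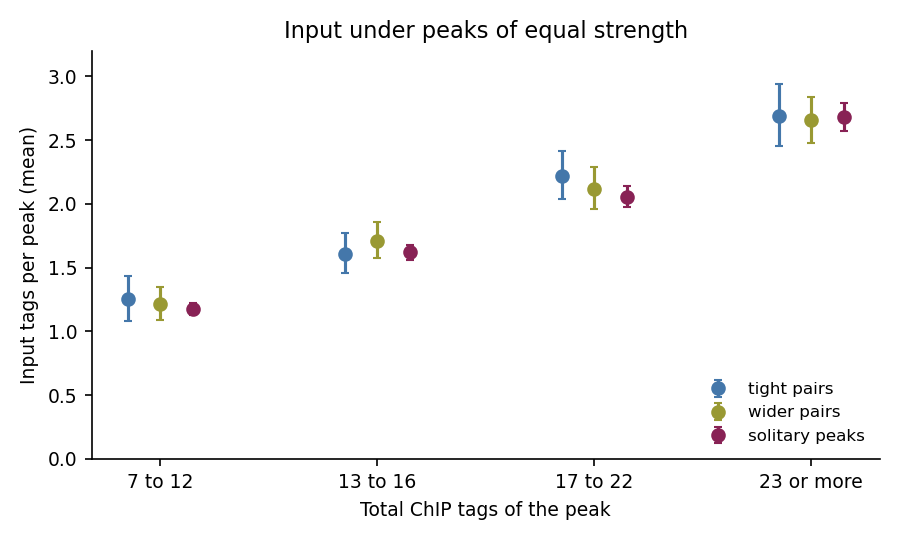
Mean input tags per peak (y axis) by the ChIP tags of the peak (x axis) for tight pairs, wider pairs and solitary peaks; bars are exact 95% Poisson intervals, and the region of very high input is left out. Within each class the intervals of tight pairs and solitary peaks overlap, from 1.25 and 1.17 in the weakest class to 2.69 and 2.68 in the strongest.

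Fold over input was similar in the groups. The median was 10.6 in tight-pair peaks (9.87 to 11.6), in wider-pair peaks and in solitary peaks, and at least 8-fold was listed for 61.6% of tight-pair peaks (58.3 to 64.9) and 61.8% of solitary peaks (60.6 to 63.1). In 166 tight pairs (39.4%) both peaks were at least 8-fold over input, in 187 (44.4%) 1 of them, and in 68 (16.2%) neither.

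Within a tight pair, the input of one peak said little about that of the other. Spearman's rho between the input tags of the 2 peaks was 0.03, where that of the ChIP tags was 0.50, and input counts of 0 to 8 tags leave little room for a correlation to show. In 306 tight pairs both ChIP and input tags differed between the peaks. The stronger peak had more input in 198 of them (64.7%, interval 59.1 to 70.1), and in 61.3% of such wider pairs (56.7 to 65.9). Pairs with equal ChIP or equal input tags are left out of these shares. The filter over input also keeps out weak peaks with high input, and its part in this was not tested. Over the 383 pairs with unlike ChIP counts the stronger peaks had 2.25 input tags each (2.11 to 2.41) and the weaker 1.68 (1.55 to 1.82). Among the 23 unequal pairs the stronger peak had more input in 12, the weaker in 6, and in 5 the input was equal.

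The pair with the most input lay on chromosome 2 at chr2:154483788-154484094 and chr2:154485438-154485744. It had 33 and 27 tags over 7.6 and 5.7 scaled input tags, and both peaks stood close to the filter at 4.36-fold and 4.76-fold over input. The pair of 50 and 49 tags on chromosome 1 and that of 30 and 33 tags on chromosome 4 (starts 132738504 and 132741154) followed, and then pairs on chromosome 1 with 23 and 31 tags over 5.7 and 4.7 (starts 39613037 and 39615942) and with 29 and 20 tags over 6.6 and 3.8 (starts 182243065 and 182244150). The strongest pair was thus also among those with the most input.

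At the other extreme, 11 pairs (2.61%) had no input tag under either peak, 102 had none under 1 peak and 308 had input under both. The strongest of the 11 was the pair of 50 and 20 tags on chromosome 1. The next had 20 and 18 tags on chromosome 2 (starts 157392092 and 157392916), 16 and 19 on chromosome 16 (starts 21630699 and 21631839), 18 and 12 on chromosome 9 (starts 31051206 and 31052393) and 18 and 11 on chromosome 10 (starts 43419929 and 43422851). Their listed folds, up to 106 for the peak of 50 tags, are set by the lowest input value and are not measured ratios.

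The height of a peak in relation to its tags was slightly lower in tight-pair than in solitary peaks, which were not matched for tags. The caller's score, its own peak height, was a median of 0.87 of the tags in tight-pair peaks (0.86 to 0.88) and 0.88 in solitary peaks (0.88 to 0.89). It was 0.875 in wider pairs (0.867 to 0.885) and 0.873 in chains of 3 or more (0.864 to 0.882). Both intervals overlap that of tight pairs, so the value was not particular to them. With scores in place of tags the median balance of tight pairs was 0.81, and 4.04% were unequal.

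Tight pairs were found on all 19 autosomes. Chromosome 2 had 41, chromosome 1 had 37 and chromosomes 6 and 11 had 32 each. The share of a chromosome's peaks that lay in tight pairs ran from 5.43% on chromosome 17 (10 pairs, Poisson interval 2.61 to 9.99) to 13.9% on chromosome 8 (26 pairs, 9.08 to 20.4). Even these extremes overlap, so chromosomes were not told apart by this share.

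Outside the pair, the nearest further peak lay a median of 28429 bp away (24128 to 35676), against 27934 bp for wider pairs and 41430 bp for solitary peaks (39918 to 43155). Within 50000 bp another peak was listed for 289 tight pairs (68.6%, 64.0 to 73.1) and for 56.6% of solitary peaks (55.4 to 57.9). No other peak within 100000 bp was listed for 65 tight pairs (15.4%) and 24.1% of solitary peaks, and 2 pairs had none within 1000000 bp. A pair has 2 flanks measured from different midpoints, and the rule set the minimum of 10000 bp for all 3 groups.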

How the data were processed

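The submitters' processing notes name CASAVA 1.8.2, Bowtie, HOMER and build mm9. Per the file headers, the authors called peaks with HOMER findPeaks on the ChIP sample against input. Fragment length was 306 bp, the minimum distance 612 bp, the false discovery rate 0.001 (threshold 9 tags, met by every score, while 55 peaks have 7 or 8 total tags), and filters of 4-fold and a Poisson p-value of 1e-04 applied over input and over the local 10000 bp. The deposited total tags are raw counts. The deposited normalized tag count is a signal scaled to 10000000 tags, and input tags are a signal the authors scaled to ChIP depth. The deposited folds are linear ratios, the deposited p-values were not used further, and the deposited score is the caller's peak height.

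Peaks were chained on midpoints. Intervals are Poisson, Clopper-Pearson or, for medians, from binomial order statistics. Local tags were obtained as tags over local fold, divided by peak size over the rest of the region (306 over 10000 bp less the peak). Python 3.11.15, numpy 2.4.6, pandas 2.3.3, scipy 1.17.1 and matplotlib 3.10.9 were used, and the steps were tested on simulated data. The pairs and lists were chosen with earlier results of these data known. Pairs were named by fixed rules: the 10 with the most tags, and 5 each for shortest, just inside and just outside 3000 bp, least balanced, balanced (ratio at least 0.9) with most tags, most input, and no input with most tags. The alternatives were stricter peak filters, other chaining distances and pair limits, adding the X, the score, and a 99% interval.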

Additional observations from a re-analysis of the deposited data

How the results depend on the processing

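Of 59 values recomputed under 10 alternatives, 43 stayed within their 95% interval (or, for the number of pairs, within 1.5 times) and 16 moved. With only peaks at least 8-fold over input, there were 193 pairs against 421, with a median of 18 tags and 0.9 scaled input tags and 21.8% of peaks without input. With only the peaks that reached the median count of the list there were 225 pairs, a median of 21 tags and 10.9% without input. These shifts follow from the filters, which act on the same values. A chaining distance of 20000 bp gave 276 pairs. A pair limit of 2000 bp gave 280 pairs with a median distance of 1206.5 bp, and one of 5000 bp a median of 2020 bp. With a 99% interval 0.95% of pairs were unequal. One alternative was chosen after seeing the data: with both peaks at least 5-fold over the local region, 240 pairs were left, with a median of 18 tags, a median ratio of 0.83 and 2.50% unequal; the cause was not tested. The median ratio stayed between 0.80 and 0.82 in the 8 alternatives listed beforehand that gave one.

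The planned motif search was not run, since mm9 sequence was not used here. No paired analysis was possible because there was 1 ChIP sample, so no replicate was left out either. At 6390234 tags, sites with a score under the threshold of 9 are not listed, so a solitary peak is not shown to lack a weaker neighbour.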

Other observations

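The X chromosome was outside the rule. It held 7 pairs by the same distances, or 14 of its 112 peaks (12.5%, interval 7.01 to 20.1, against 9.60% on the autosomes). They lay 629 to 2895 bp apart, their peaks had 11 to 21 tags, and none of the 7, with 23 to 38 tags in sum, was unequal by the 95% interval.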
